A study of Homo sapiens with 6 samples.

Results

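Small nucleolar RNA host genes were compared between U2OS cells treated with an inhibitor of poly(ADP-ribose) glycohydrolase (PARG) and cells given solvent. The members are the 31 genes, of 60708 gene rows counted, whose Ensembl identifier maps to a symbol made of SNHG and a number or to GAS5, ZFAS1 or DANCR. The rule did not use their measured change, but it was set with earlier results of these data known. U2OS is an established human osteosarcoma line, labelled wild type. The 3 DMSO libraries come from cells given DMSO, and the 3 PARGi libraries from cells given 25 µM PDD00017273, a small-molecule PARG inhibitor. Treatment lasted 4 days in medium with serum in both groups, and the design calls the libraries biological triplicates. The kit used total RNA as input and kept the strand of each transcript. The comparison asks whether blocking the removal of poly(ADP-ribose) chains goes with a change in the level of each host transcript.

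Small nucleolar RNAs (snoRNAs) are short nuclear RNAs that guide chemical modification of ribosomal RNA and some other RNAs. Those with C and D boxes guide ribose methylation, those with H and ACA boxes guide pseudouridylation, and their relatives in Cajal bodies (scaRNAs) act on spliceosomal RNAs. Most human snoRNAs are cut out of introns of a longer host transcript. Some hosts encode ribosomal proteins or translation factors. In the SNHG genes the spliced exons mostly encode no known protein, and many of these spliced RNAs are short-lived because translating ribosomes send them to nonsense-mediated decay. Several hosts start transcription at a pyrimidine tract (a 5′-terminal oligopyrimidine or TOP start), as ribosomal protein genes do. GAS5 was first found as a transcript that builds up in growth-arrested cells.

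The host genes carry their snoRNAs as defined stretches inside the longer transcript, and guides of SNHG8 and ZFAS1, which passed the test below, show both architectures. Sequences are GENCODE 29 transcripts on GRCh38, 5′ to 3′, with the boxes that a script found in capitals. In the H/ACA RNA the capitals mark a single match to the H box (ANANNA) near the middle and the ACA close to the 3′ end. SNORA24 lies in SNHG8 at chr4:118279190-118279320 on the plus strand.
SNORA24: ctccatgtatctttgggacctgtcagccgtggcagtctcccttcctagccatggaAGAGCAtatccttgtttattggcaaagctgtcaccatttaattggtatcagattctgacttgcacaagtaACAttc
The 3 C/D RNAs of ZFAS1 lie on the plus strand at chr20:49278940-49279028 (SNORD12C), chr20:49280319-49280409 (SNORD12B) and chr20:49280683-49280772 (SNORD12). Capitals mark the C box (TGATGA) near the 5′ end and the D box (CTGA) near the 3′ end.
SNORD12C: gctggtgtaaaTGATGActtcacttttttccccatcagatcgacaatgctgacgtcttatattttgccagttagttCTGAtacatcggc
SNORD12B: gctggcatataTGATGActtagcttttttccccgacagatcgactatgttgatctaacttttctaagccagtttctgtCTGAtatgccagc
SNORD12: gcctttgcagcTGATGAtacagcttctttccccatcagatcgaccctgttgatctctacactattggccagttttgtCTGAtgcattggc

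The libraries held 60286931 to 80605145 counts, with trimmed-mean (TMM) scaling factors from 0.995 to 1.01. Library pairs differed by more than sampling noise, so no library counted as a duplicate. All 6 mesenchymal and osteoblast markers that had been listed lay above 1 CPM (counts per 1000000, scaled to library size), from ALPL at 5.1 to COL1A1 at 4392 CPM over the 6 libraries. Of the 13 listed markers of epithelial, endothelial, blood and liver cells, 4 reached 1 CPM, and EPCAM had the highest mean, 3.27 CPM.

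As a group the host genes held nearly the same share of the RNA with and without the inhibitor. All 31 members together had 994, 973 and 956 CPM in DMSO replicates 1, 2 and 3, and 951, 946 and 970 CPM in PARGi replicates 1, 2 and 3. The groups overlapped, and their means were 974 ± 19 and 956 ± 12.9 CPM (SD, n = 3 each). In such bulk RNA, fewer cells that hold a transcript and less of it per cell cannot be told apart. The log2 ratio of the means was -0.027, and it was -0.016 without SNHG29. SNHG29 alone supplied 26.3% to 27.5% of the members' counts. The 5 members with the most counts supplied 59.5% to 60.7%.

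Of the 31 members, 28 passed the filter on low counts and entered the quasi-likelihood test of edgeR. SNHG4 was higher in PARGi and SNHG8 and ZFAS1 were lower, at a Benjamini-Hochberg adjusted p under 0.05 over all 20409 genes tested. These 3 are 10.7% of the tested members, where 24.3% of all tested genes were called. The background was 13.2% for higher and 11% for lower calls. Among the long non-coding genes of GENCODE 29, the class to which 27 of the 28 tested members belong, 12.3% were called. At an unadjusted p under 0.05 there were 7 members, where 35% of all tested genes lay under it. The share of members called was thus below that of all genes and close to that of long non-coding genes. The latter covers long non-coding genes at any level and was not matched to the level of the members. With the correction for GC content and length the balance turned to 3 higher (SNHG4, SNHG12 and SNHG14) and 1 lower (SNHG8), and with upper-quartile scaling it was 1 higher and 5 lower. Of the 22 members with a mean of at least 5 CPM, the same 3 passed, which is 13.6%, against 34.7% of all tested genes at that level.

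The changes of the members were small. Their log2 fold changes ran from -0.24 (SNHG9, not called) to 0.21 (SNHG4), and no member reached a 1.5-fold change. The median was -0.039, beside -0.0070 for all tested genes, and the median absolute log2 fold change was 0.065, beside 0.11 for all tested genes. With the correction for GC content and length the median was -0.0096 for members and 0.015 for all tested genes, and with upper-quartile scaling -0.063 and -0.032. Of the 28 values, 19 were below 0 and 9 above. For 18 of the 25 members that were not called, the 95% confidence interval lay within a 1.2-fold change in either direction. The other 7 were SNHG31, SNHG21, SNHG20, SNHG32, SNHG5, SNHG27 and SNHG9. Their intervals reach beyond 1.2-fold, so a change of that size was not excluded for them. In 6 members all 3 PARGi libraries lay on 1 side of all 3 DMSO libraries (21.4%, against 38% of all tested genes), 4 of them lower and 2 higher. Of all tested genes, 18.2% were lower and 19.8% higher by this measure.

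**Figure D1:**
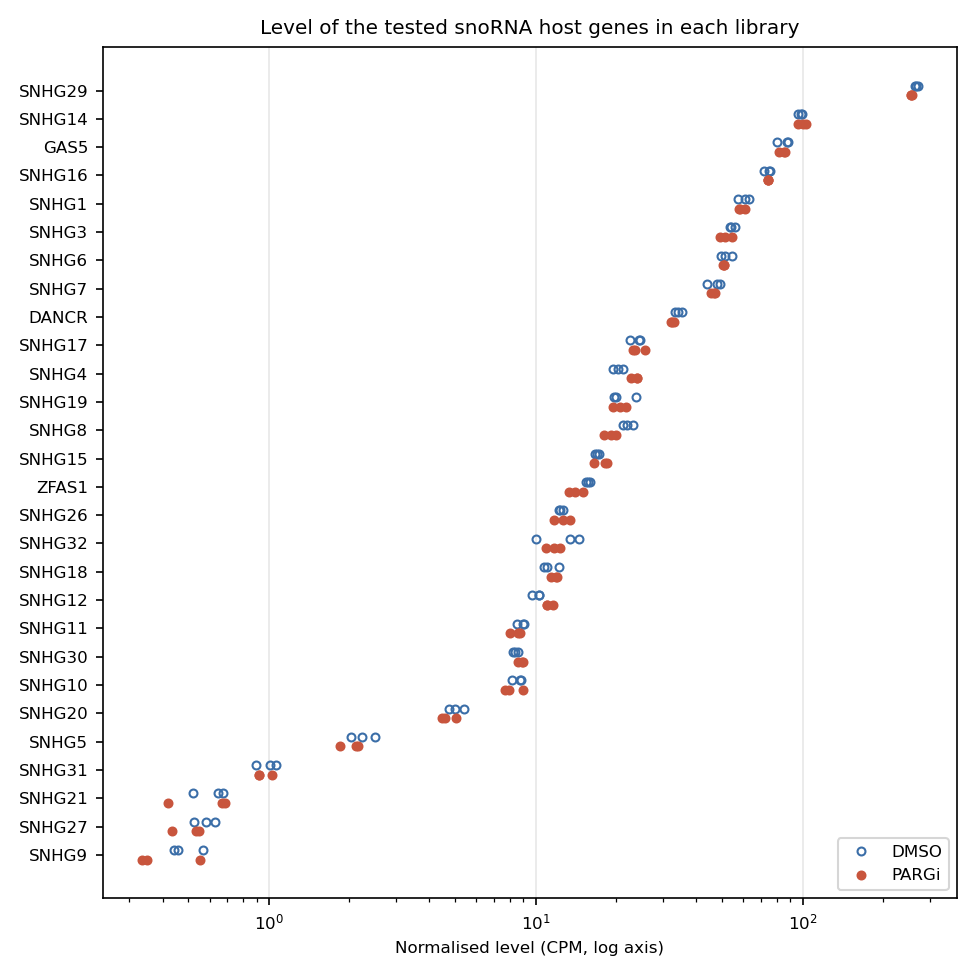
Normalised level (CPM, log axis) of the 28 tested host genes in each library, with open blue circles for the 3 DMSO and filled red circles for the 3 PARGi libraries. Levels span from under 1 CPM (SNHG9) to over 250 CPM (SNHG29), and for most genes the circles of the groups overlap.

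**Figure D2:**
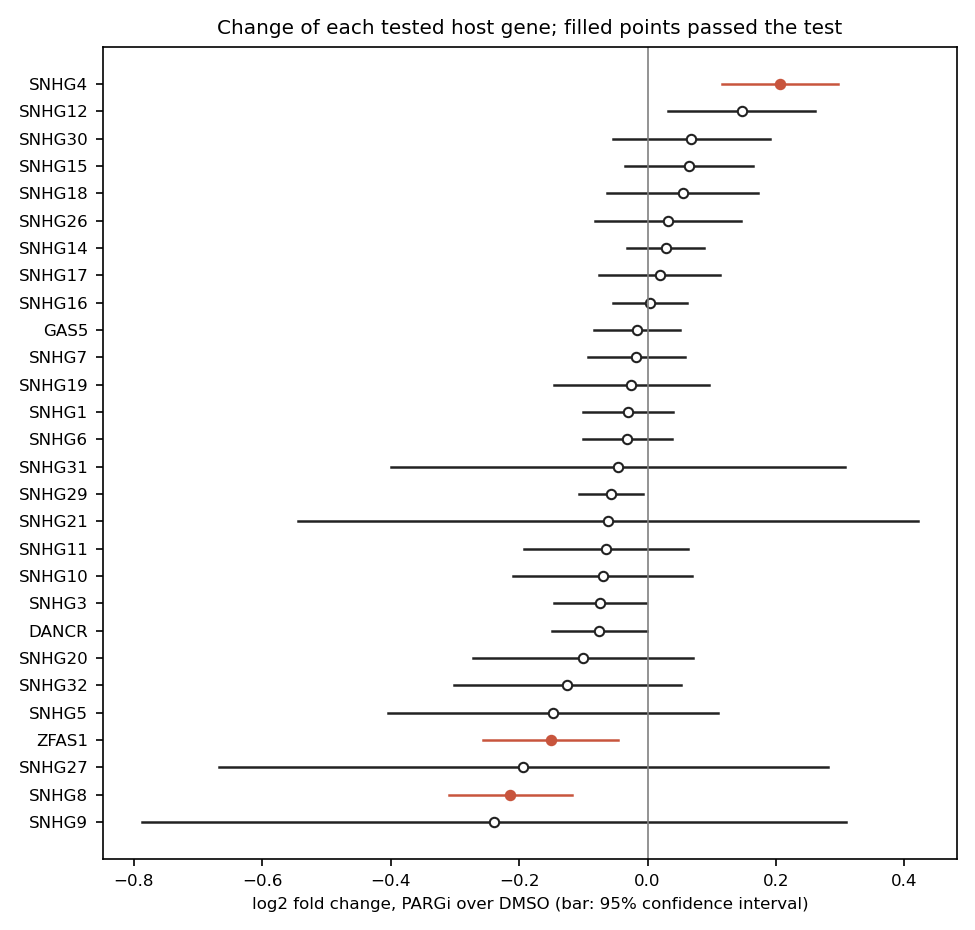
log2 fold change of PARGi over DMSO for the 28 tested host genes, with bars for the 95% confidence interval and filled red points for the 3 genes that passed an adjusted p of 0.05. SNHG4 lies to the right of 0, SNHG8 and ZFAS1 lie to the left, and the widest intervals belong to genes with few counts such as SNHG9 and SNHG27.

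SNHG4 was the member that rose. It hosts the H/ACA RNAs SNORA74A and SNORA74D and lies on the plus strand of chromosome 5 (GENCODE 29 positions 139274102 to 139284899). SNHG4 measured 21.3, 19.4 and 20.4 CPM in DMSO replicates 1 to 3, and 23.9, 22.7 and 24 CPM in PARGi replicates 1 to 3. Every PARGi library lay above every DMSO library. The mean went from 20.4 ± 0.931 to 23.5 ± 0.723 CPM (SD, n = 3 each), which is 0.21 as log2 fold change (SE 0.044, 95% interval 0.12 to 0.30, edgeR adjusted p = 0.00105). In percent this is 15.4, with an interval from 8.38 to 22.8. The call held in all 15 alternatives, with log2 fold changes from 0.17 to 0.24. SNHG4 overlaps the MATR3 locus, and 14% of its exonic bases lie in exons of a MATR3 entry on the same strand. Its snoRNA genes touch none of its exons. The row of that entry (ENSG00000280987) was at 0.0105 ± 0.0181 CPM under DMSO and 0.0534 ± 0.0362 CPM under PARGi (SD, n = 3 each) and was not tested. These values are of that entry alone and need not give the level of MATR3, because how reads shared by 2 genes were counted is not known. The part of this overlap in the SNHG4 value was not tested.

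SNHG8 had the clearest fall. This short gene hosts SNORA24 and lies on the plus strand of chromosome 4, from 118278709 to 118279823. It was at 23.1, 21.2 and 22 CPM in the DMSO replicates and at 19.1, 18 and 20 CPM in the PARGi replicates. The groups did not overlap. The mean went from 22.1 ± 0.938 to 19 ± 0.957 CPM (SD, n = 3 each), which is -0.21 as log2 fold change (SE 0.046, 95% interval -0.31 to -0.12, edgeR adjusted p = 0.00132). That is -13.8%, with an interval from -19.3% to -7.87%. It stayed called in all 15 alternatives. Correcting for GC content and length made the value smaller, at -0.14 (adjusted p = 0.0162).

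ZFAS1 fell as well, with less support. It is transcribed from the plus strand of chromosome 20, from 49278178 to 49295738, with its start beside that of the oppositely oriented gene ZNFX1, and it hosts SNORD12, SNORD12B and SNORD12C. Its level was 15.8, 15.5 and 15.9 CPM in the DMSO replicates and 14, 13.3 and 15.1 CPM in the PARGi replicates. The groups were separate, but PARGi replicate 3 lay close to the DMSO libraries. The mean went from 15.7 ± 0.241 to 14.1 ± 0.889 CPM (SD, n = 3 each), which is -0.15 as log2 fold change (SE 0.051, 95% interval -0.26 to -0.046, edgeR adjusted p = 0.0326). The call was lost with DESeq2 (adjusted p = 0.0564), with the correction for GC content and length (-0.10, adjusted p = 0.119), and without any of 4 single libraries. Those were DMSO replicate 1 (-0.15, edgeR adjusted p = 0.0783), DMSO replicate 3 (-0.14, 0.0708), PARGi replicate 1 (-0.14, 0.0941) and PARGi replicate 2 (-0.11, 0.194).

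In all, 26.1% of the exonic bases of ZFAS1 lie in exons of genes on the opposite strand. ZNFX1, one of these genes, was at 99.3 ± 2.94 CPM with DMSO and 105 ± 2.78 CPM with PARGi (n = 3 each), a log2 fold change of 0.077 that did not pass (edgeR adjusted p = 0.0545). The part of such overlaps in the ZFAS1 value was not tested.

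SNHG12, which hosts both classes of snoRNA, came next by p without passing. It was at 9.72, 10.3 and 10.3 CPM under DMSO and 11.6, 11 and 11 CPM under PARGi. All 3 PARGi libraries lay above the DMSO libraries, and the log2 fold change was 0.15 (SE 0.055, 95% interval 0.032 to 0.26, edgeR adjusted p = 0.0558). It passed in 2 of 15 alternatives, those with the GC and length correction.

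**Figure D3:**
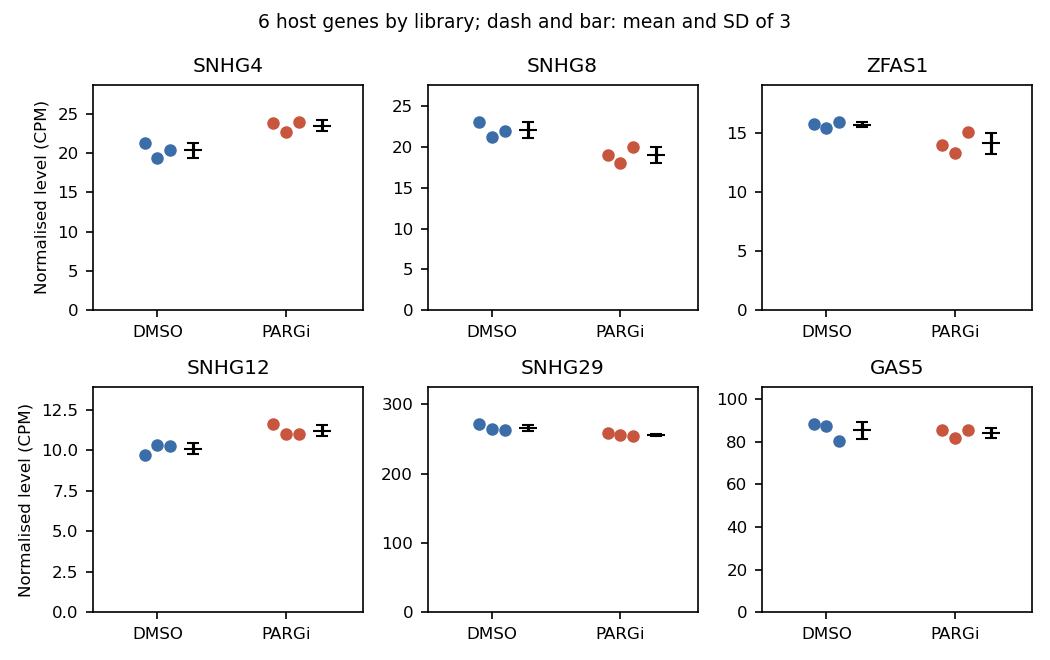
Normalised level (CPM) of 6 host genes in each of the 3 DMSO (blue) and 3 PARGi (red) libraries, with the mean and SD of each group as a black dash and bar. The points of the groups are apart for SNHG4, SNHG8, ZFAS1, SNHG12 and SNHG29 by a small part of their level, and they overlap for GAS5.

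Of the 6 most abundant members, SNHG8 fell, as described above, and the other 5 did not pass the test. Per kilobase of exon, the highest levels over the 6 libraries were those of SNHG29 (69.5 CPM per kilobase), SNHG19 (61.1), SNHG6 (41), GAS5 (23.3), SNHG8 (22.3) and SNHG1 (15.9). SNHG29 was named LRRC75A-AS1 in GENCODE 29 and hosts SNORD49A, SNORD49B and SNORD65. It was at 271, 265 and 263 CPM under DMSO and 258, 256 and 255 CPM under PARGi. The groups were separate, yet the difference was -3.83% with an interval from -7.1% to -0.448%, and it did not pass (edgeR adjusted p = 0.0949).

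GAS5 was at 88.1, 87.1 and 80.4 CPM under DMSO and 85.4, 81.5 and 85.7 CPM under PARGi. The groups overlapped with a log2 fold change of -0.017 (edgeR adjusted p = 0.768), and the 95% interval allows changes from -5.66% to 3.58%. SNHG1, host of the C/D RNAs SNORD22, SNORD25, SNORD26, SNORD27, SNORD28 and SNORD30, was at 61, 62.9 and 57.2 CPM under DMSO and 58, 58.2 and 60.9 CPM under PARGi. Its groups overlapped too (-0.030, edgeR adjusted p = 0.579, interval from -6.74% to 2.82%).

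SNHG6, host of SNORD87, had 54.4, 49.6 and 51 CPM under DMSO and 50.6, 50.2 and 50.8 CPM under PARGi, which overlap (-0.032, edgeR adjusted p = 0.551). SNHG19, host of SNORD60, had 23.8, 19.9 and 19.6 CPM under DMSO and 19.5, 20.8 and 21.8 CPM under PARGi. DMSO replicate 1 was the highest of its 6 values, and the log2 fold change of -0.026 had an interval from -0.15 to 0.095 (edgeR adjusted p = 0.803). Without that library it was 0.066, so the sign changes with 1 library.

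Among the rest, SNHG14 is the host of the long imprinted C/D clusters of the Prader-Willi region on chromosome 15, with 83 annotated snoRNA genes inside it. It was at 97.9 ± 1.92 CPM under DMSO and 99.75 ± 3.4 CPM under PARGi (n = 3 each, edgeR adjusted p = 0.532), and its interval ran from -2.15% to 6.29%. It was called higher with the GC and length correction, with or without the replicate block. SNHG16 was at 74.1 ± 2.03 and 74.3 ± 0.217 CPM (0.0034, edgeR adjusted p = 0.951). DANCR, host of SNORA26 and known for restraining differentiation of progenitor cells, was at 34.3 ± 1.06 and 32.5 ± 0.383 CPM. Its groups were separate (-0.075, edgeR adjusted p = 0.134). SNHG3 was at 54.4 ± 1.14 and 51.5 ± 2.61 CPM (-0.074, edgeR adjusted p = 0.126). It shares exons with RCC1 on its strand, and RCC1 was at 125 ± 3.5 and 126 ± 2.43 CPM (edgeR adjusted p = 0.9).

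The 3 members that were not tested had almost no counts. Between the 6 libraries SNHG28 lay between 0 and 0.0314 CPM, SNHG25 between 0 and 0.112 CPM and SNHG22 between 0.0314 and 0.1 CPM. For SNHG25, 48.6% of the exonic bases lie in exons of other genes on the same strand, and for SNHG28 the share was 100%.

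Members with C/D and with H/ACA RNAs lay on both sides of 0. Of the 12 tested members with C/D RNAs alone, 5 were above 0 and 7 below, with a median log2 fold change of -0.028 and 1 call. Of the 10 with H/ACA RNAs alone, 3 were above 0 and 7 below, with a median of -0.056 and 2 calls in opposite directions. The 3 tested scaRNA hosts were all below 0, from -0.10 to -0.062, and none was called. GENCODE 29 has no snoRNA gene inside GAS5, whereas RefSeq places 11 there, SNORA103 and 10 C/D RNAs such as SNORD44 and SNORD81. They were not analysed here.

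The snoRNAs themselves were barely seen in these libraries. GENCODE 29 places 135 snoRNA and scaRNA genes inside the members on the same strand, 83 of them in SNHG14. Of the 135, 122 had no count in any library and 4 had enough counts for a test. None of the 4 was called: SNORA73B in SNHG3 (1.97 CPM under DMSO, 1.93 in PARGi, edgeR adjusted p = 0.898), SNORD104 in SNHG25 (0.816 and 0.959, 0.498), SNORA71B in SNHG17 (0.917 and 0.814, 0.572) and SNORD93 in SNHG26 (0.463 and 0.381, 0.472). SNORD104 was counted 373 times over the 6 libraries while its host SNHG25 was nearly empty. Counts differed by position within the host. Outside SNHG14, all 29 snoRNA genes that lie wholly inside an annotated host exon had 0 counts, and 11 of the 20 that touch no host exon had counts. SNORA24 in SNHG8 and SNORD12 in ZFAS1 are among the 29. How reads shared by 2 genes were counted is not given in the sources used here, and its part in this pattern was not tested. For the called hosts, SNORA74D had 20 counts over the 6 libraries, SNORA74A 2, SNORD12C 42 and SNORD12B 11, all too few for a test. Whether the snoRNAs of a host followed the host could therefore not be compared.

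**Figure D4:**
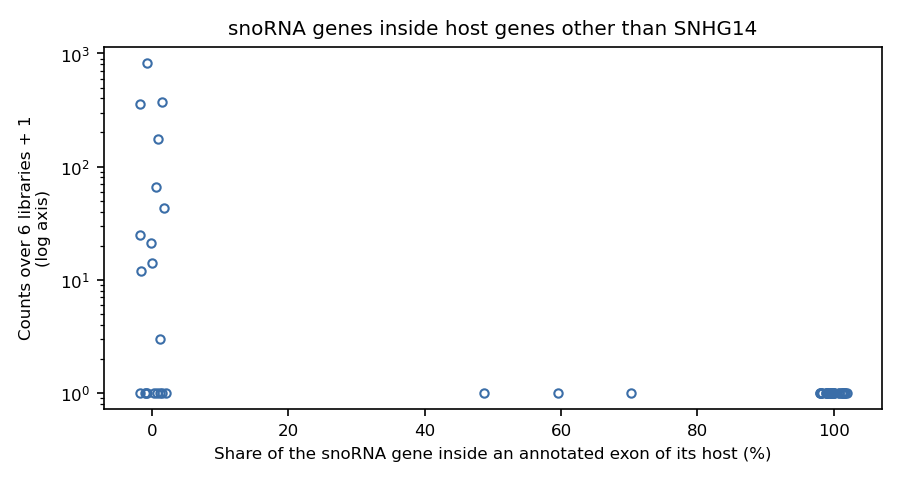
Counts over the 6 libraries plus 1 (log axis) of the 52 snoRNA genes inside host genes other than SNHG14, against the percent of the snoRNA gene that lies in an annotated exon of its host. Points are spread sideways by up to 2 percentage points to separate them. The 29 genes at 100% all have 0 counts, and genes with counts lie at the left, outside host exons.

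Start sites were then described, because a TOP start is the feature that host genes are known to share with ribosomal protein genes. RefSeq promoters on GRCh38.p14 were found for 27 of the 31 members, without SNHG6, SNHG9, SNHG15 and SNHG25. A C at the first transcribed base followed by at least 4 pyrimidines was present in 7 of 27 (25.9%), in 60% of 80 ribosomal protein promoters and in 4.07% of all 35116 promoters. Bases from 20 before to 30 from the start are shown for members that differ in this feature, each 5′ to 3′ on the gene's strand with the pyrimidine run from the start base in capitals. The called SNHG8 (chr4:118278742-118278791) has a run of 1 and the called ZFAS1 (chr20:49278622-49278671) a run of 5. SNHG12 (chr1:28581844-28581893), SNHG5 (chr6:85678704-85678753), SNHG19 (chr16:2155329-2155378) and SNHG18 (chr5:9546180-9546229) also have runs. SNHG29 (chr17:16438967-16439016), the most abundant member, has none at the RefSeq start.
SNHG8: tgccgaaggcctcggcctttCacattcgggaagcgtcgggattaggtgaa
ZFAS1: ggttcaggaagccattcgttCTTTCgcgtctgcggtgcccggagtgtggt
SNHG12: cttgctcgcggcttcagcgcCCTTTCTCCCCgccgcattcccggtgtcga
SNHG5: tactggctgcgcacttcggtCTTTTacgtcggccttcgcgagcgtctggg
SNHG19: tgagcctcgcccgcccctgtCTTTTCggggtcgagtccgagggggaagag
SNHG18: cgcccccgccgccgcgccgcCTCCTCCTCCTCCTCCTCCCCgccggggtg
SNHG29: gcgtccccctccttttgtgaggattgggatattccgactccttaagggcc
SNHG4, the member that rose, starts with a run of 13 pyrimidines. The 7 tested members with the feature lay at a median of -0.026 (log2 fold change), with 3 above 0, 4 below and 2 called (SNHG4 higher, ZFAS1 lower). The 18 without it had a median of -0.051, with 5 above 0, 13 below and SNHG8 called. Members with this feature thus lay on both sides of 0. It was read at the RefSeq start alone, where GAS5 has an A and so counts among the 18 without it. RefSeq and GENCODE 29 place some starts apart, that of ZFAS1 at 49278642 and 49278178. For GAS5 they are at 173869045 and 173868882, and for SNHG12 at 28581873 and 28583132. The groups with and without the feature may therefore differ from hosts with and without a TOP start.

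The promoter of SNHG8 is printed whole because it alone of the 3 called members overlaps no annotated untranslated region. It runs from 250 bases before to 50 from the start, chr4:118278512-118278811, with 62.3% G and C, and the capital marks the start base.
SNHG8 promoter: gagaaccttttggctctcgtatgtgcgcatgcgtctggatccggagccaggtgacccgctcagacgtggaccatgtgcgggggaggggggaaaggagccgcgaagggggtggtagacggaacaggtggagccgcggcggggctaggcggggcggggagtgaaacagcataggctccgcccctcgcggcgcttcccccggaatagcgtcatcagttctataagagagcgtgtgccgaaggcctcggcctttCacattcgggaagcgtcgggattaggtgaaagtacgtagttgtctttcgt
It holds none of the exact strings CACGTG (an E-box form), CCGGAAG (an ETS-type form) and TATAAA on either strand. Other forms of these motifs were not searched for. CACGTG was found in 2 of the 27 member promoters (7.41%, against 7.26% of all promoters), CCGGAAG in 2 (7.41%, against 10.3%) and TATAAA in 4 (14.8%, against 11.5%).

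Several host genes share a start region with a gene on the other strand, and 5 of the 10 tested neighbours were called, where 24.3% of all tested genes were. Of their 5 hosts, 3 were tested and not called and 2 had too few counts. SLC3A2, a subunit of amino acid transporters, starts 188 bases from SNHG1 on the other strand. It rose from 258 ± 6.6 to 294 ± 7.63 CPM (n = 3 each), a log2 fold change of 0.19 (edgeR adjusted p = 1.28e-05), while SNHG1 was at -0.030. SEMA5A, a semaphorin gene that starts 125 bases from SNHG18, fell from 3 ± 0.542 to 2.18 ± 0.119 CPM (-0.47, edgeR adjusted p = 0.00671), while SNHG18 was at 0.055 (edgeR adjusted p = 0.542). ACAA2, a thiolase of fatty acid oxidation beside the nearly silent SNHG22, fell by 0.13 on the log2 scale (edgeR adjusted p = 0.00306). The long non-coding gene ENSG00000272668 beside SNHG28 fell by 0.38 on the log2 scale (edgeR adjusted p = 0.0283). ZBTB37, which starts 800 bases from GAS5, also fell by 0.13 (edgeR adjusted p = 0.0286). TRAF7 beside SNHG19, BARD1 beside SNHG31, RPS2 beside SNHG9, ZNFX1 beside ZFAS1 and ENSG00000267546 beside SNHG16 did not pass. The difference between each host and its neighbour was not tested.

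Genes for the snoRNA particles themselves were not called, and some of their assembly factors were. None of the 8 core proteins of the particles was called by edgeR, and 1 had an unadjusted p under 0.05 (NOP10, log2 fold change 0.071, edgeR adjusted p = 0.0793). Fibrillarin (FBL), the methyltransferase of C/D particles, was at 148 ± 20.3 CPM under DMSO and 139 ± 1.7 CPM under PARGi (-0.094, edgeR adjusted p = 0.234), with a wide spread among the DMSO libraries. Dyskerin (DKC1), the pseudouridine synthase of H/ACA particles, was at 198 and 196 CPM (edgeR adjusted p = 0.738). Of 12 assembly factors, 4 were called. ZNHIT3 (40.9 ± 0.67 to 44.6 ± 0.754 CPM, log2 fold change 0.13), the H/ACA chaperone SHQ1 (34.2 ± 0.289 to 37.1 ± 0.323 CPM, 0.12) and RPAP3 (60 ± 0.905 to 64.1 ± 1.24 CPM, 0.096) rose, and PIH1D1, a partner of RPAP3, fell (83.3 ± 1.03 to 78.4 ± 1.35 CPM, -0.087), with n = 3 each. That is 33.3% of the list, where 24.3% of all tested genes were called, and the count was 2 without PARGi replicate 2. PIH1D1 was not called with the GC and length correction (6 higher, 0 lower), with block and correction together (4 and 0), without a filter (3 and 0), or without DMSO replicate 1, PARGi replicate 1 or PARGi replicate 2.

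Factors that act on the host transcript after splicing were mixed. Of 18 genes for intron release and snoRNA trimming, 2 exosome genes rose, EXOSC4 (36.1 ± 2.29 to 39.6 ± 0.597 CPM, log2 fold change 0.13) and MPHOSPH6 (43.9 ± 0.779 to 46.8 ± 1.05 CPM, 0.092), and none fell. That is 11.1%, below the 24.3% of all tested genes. The count was 0 without PARGi replicate 1, and 1 without PARGi replicate 3 or DMSO replicate 2. Of 23 nonsense-mediated decay factors, 4 were called (17.4%, also below 24.3%). The exon junction protein CASC3 fell (158 ± 2.19 to 146 ± 3.34 CPM, -0.11), as did NBAS (-0.12), and the translation release factors GSPT1 (148 ± 2.28 to 157 ± 2.08 CPM, 0.083) and ETF1 (122 ± 2.06 to 129 ± 2, 0.083) rose. The split of 2 higher and 2 lower was 6 and 2 with the GC and length correction and 0 and 4 with upper-quartile scaling. The median of the 23 was 0.00044, and 1 was called without PARGi replicate 2 or without PARGi replicate 3.

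Among coding genes that host snoRNAs, those for ribosomal proteins lay below 0. All 28 tested ribosomal protein hosts lay below 0, with a median log2 fold change of -0.087. Of these hosts, 15 fell past the threshold (53.6%, where 11% of all tested genes did). RPL13A (1333 ± 38.9 to 1192 ± 17 CPM, -0.16) and RPL3 (1430.2 ± 37.8 to 1298 ± 24.4 CPM, -0.14) were among those with small p-values. The count of calls among these hosts was 9 without DMSO replicate 1 and 4 without PARGi replicate 2. Low values were not limited to hosts. Of the 79 tested ribosomal protein genes, whether or not they host snoRNAs, 76 lay below 0, with a median of -0.077. In that list 34 fell (43%) and none rose, and 6 were called without PARGi replicate 2. Whether hosts and other ribosomal protein genes differ was not tested. Of 124 other coding hosts, 14 rose and 15 fell (23.4%, where 24.3% of all tested genes were called), with a median of 0.0096. The balance moved with the scaling, to 28 higher and 12 lower with the GC and length correction (24 and 11 with the block as well) and to 9 higher and 22 lower with upper-quartile scaling. The calls with the smallest p were NALF1 (9.93 ± 1.6 to 14.3 ± 0.28 CPM, 0.52), the importin gene KPNA4 (95.5 ± 2.12 to 107 ± 2.93 CPM, 0.17) and EEF2 (1655 ± 20.6 to 1521 ± 18.7 CPM, -0.12). The count was 17 without PARGi replicate 2 and 19 without PARGi replicate 3. Of 10 other non-coding hosts, 2 were tested and neither was called by edgeR.

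Other TOP mRNAs, those for translation factors and related proteins, fell in part. Of 18 tested, 8 fell and none rose (44.4%, where 11% of all tested genes fell and 24.3% were called either way), with a median of -0.066. All 18 lay above 5 CPM, a level from which 34.7% of tested genes were called in either direction. EIF4B (724 ± 5.05 to 653 ± 3.4 CPM, -0.15), EEF2 and EEF1A1 (8619 ± 278 to 8097 ± 49.9 CPM, -0.090) had the smallest p-values, and the largest edgeR adjusted p of the 8 was 0.0471. The count was 3 without PARGi replicate 2, and 4 without PARGi replicate 3 or DMSO replicate 1. With the replicate number as a block it was 5. The median of the non-coding hosts, -0.039, lay between that of the ribosomal protein hosts and that of all tested genes. The lists share members in part, as EEF2 is both a coding host and a TOP mRNA, and the difference between the lists was not tested.

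**Figure D5:**
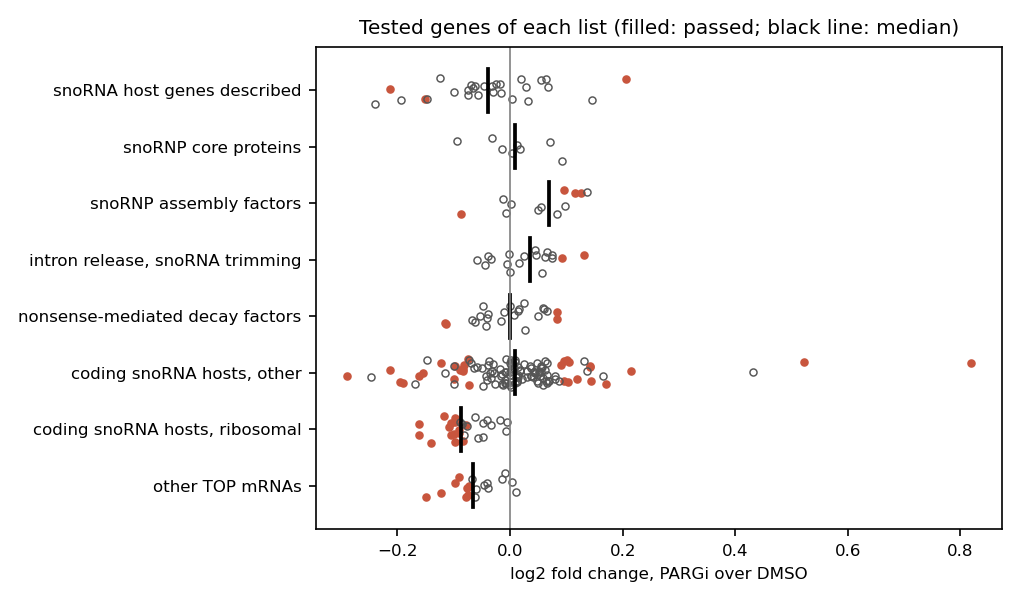
log2 fold change of PARGi over DMSO of every tested gene in 8 lists, with filled red points for genes past an adjusted p of 0.05, open points for the others and a black line at the median of each list. The ribosomal protein hosts and other TOP mRNAs lie mostly to the left of 0, whereas the 28 host genes described here spread around a median of -0.039.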

How the data were processed

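The deposited files hold raw whole-number counts per gene, 1 column per library, and were made by the authors. Per the submitters' processing notes, the tools included cutadapt 1.18, STAR 2.7.3a, SAMtools 1.9, DESeq2 3.12 and deepTools on hg38. The annotation release, the strand setting and filters are not given in the sources used here. Genes inside exons of an abundant opposite-strand gene (226, with a median of 20.5 counts over 6 libraries, against 40542.5 for the outer genes) were counted far below it, so counts were read as strand-specific. Identifiers were matched without version to a table of gene names (60507 of 60708) and to GENCODE 29 (58440), and all 31 members were found in both.

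Counts were tested on all 20409 genes passing filterByExpr with edgeR 4.0.16 (R 4.3.3): TMM scaling, glmQLFit, two-sided glmQLFTest on treatment, Benjamini-Hochberg adjustment and a threshold of 0.05. Counts per 1000000 (CPM) and the SD over 3 libraries come from the same scaling. The scripts were tested on simulated data. Alternatives were DESeq2 1.42.0, limma-voom (limma 3.58.1), other scalings and filters, the replicate number as a block, a loess offset for GC content and length (span 0.3), both together, and each library left out. Same-numbered libraries did not deviate together (r from -0.00784 to 0.0157), so no block was used. P-values measure the spread between these libraries. No molecular identifiers are recorded, so counting error is a lower limit.

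Named were each called member, the 5 others with the highest CPM per kilobase, and up to 3 called genes of each list by p, plus the called snoRNAs and neighbours and those of called hosts; further genes were chosen after their values were seen. The members and lists were chosen with earlier results of these data known. Figures were drawn with matplotlib 3.10.9. Some items that this rule selects are not reported here.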

Additional observations from a re-analysis of the deposited data

How the results depend on the processing

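The number of called members was 3 or within 1.5 times of it (2 to 4) in 15 of 16 alternatives, with 3 higher and 1 lower under the GC and length offset (also with the block) against 1 and 2 in the main test, and 6 with upper-quartile scaling, which added SNHG29, SNHG3 and DANCR, all lower, and moved the median of all tested genes from -0.0070 to -0.032. Leaving out 1 library gave 2 to 4 called members. SNHG4 and SNHG8 were called in all 15 alternatives for single genes, and ZFAS1 in 8 of 15, with adjusted p from 0.0121 to 0.194. The log2 ratio of the summed members was -0.052 with upper-quartile scaling and ran from -0.041 to -0.013 with 1 library left out.

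The replicate number as a block left the count of called members at 3, and moved the calls among other TOP mRNAs from 8 to 5. With upper-quartile scaling, calls were 23 among ribosomal protein hosts and 2 among assembly factors. With the GC and length offset they were 22 among the 79 tested ribosomal protein genes (34 in the main test), 5 in the trimming list, 8 among decay factors and 1 among core proteins. With block and offset together they were 9 among ribosomal protein hosts, 19 among ribosomal protein genes, 5 in the trimming list and 1 among core proteins. DESeq2 called 1 trimming gene, and without a filter 1 core protein passed. Calls with 1 library left out ran from 6 to 54 among ribosomal protein genes, 4 to 22 among ribosomal protein hosts, 17 to 28 among other coding hosts, 3 to 11 among other TOP mRNAs, 0 to 2 in the trimming list, 1 to 5 among decay factors, 2 to 5 among assembly factors, 0 to 1 among core proteins and 0 to 1 among other non-coding hosts. The cause was not tested.

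Members near 0 that were not called changed sign. SNHG19 was at 0.066 with the offset and 0.068 with block and offset, and SNHG6 at 0.032 and 0.034. With 1 library left out, SNHG19 ran from -0.080 to 0.066, SNHG6 from -0.059 to 0.0037, GAS5 from -0.059 to 0.0065 and SNHG1 from -0.070 to 0.00061. Low counts limit SNHG9, SNHG21, SNHG27 and SNHG31.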
